A study of Mus musculus with 16 samples.

Results

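Hepatic de novo lipogenesis, the making of fatty acids from sugar and acetate carbon, was followed through 10 genes in the liver of 16 mice. They were Acly, Acaca, Acacb, Fasn, Acss2, Me1, Thrsp, Echdc1, Slc25a1 and Mcat, and every probe whose gene name on the array equals 1 of these 10 names was taken, which gave 26 of the 56605 probes and 10 of the 37074 gene names. All 10 genes were among the 20348 that passed the filter on dim probes and were tested.

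Gene expression was measured with 16 Agilent SurePrint arrays, 1 per mouse, on liver RNA of male C57BL/6 mice that were 6 weeks old at the start, ate normal chow (NC) for 4 weeks and were labelled as 10 weeks old. All were conventional mice, that is, with their own gut microbiota and no antibiotics. By the methods, 6 controls (Conv + PBS) were gavaged with the vehicle, reduced PBS, although their labels give them as untransplanted. The 5 lean-microbiota mice (Conv + LM) received caecal content of NC-fed donors, and the 5 HFD-microbiota mice (Conv + OM(HFD)) that of donors made obese by a high-fat diet (HFD). Each inoculum was a pool of several donors and mice shared cages, so the mice of a group were separate animals but not separate transfers. Across arrays, 49.75 to 58.33% of probes were well above background and the 75th percentile of brightness lay between 152.5 and 219.6, and the 8 arrays of each of the 2 slides held mice of all 3 groups.

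The pathway works in a fixed order. Citrate leaves the mitochondrion through the citrate carrier, encoded by Slc25a1, and ATP citrate lyase (Acly) splits it into acetyl-CoA, while acetyl-CoA synthetase (Acss2) makes the same product from acetate. The acetyl-CoA carboxylases then make malonyl-CoA, that of Acaca mainly for synthesis in the cytosol and that of Acacb at the mitochondrial surface, where malonyl-CoA restrains fatty acid oxidation. Fatty acid synthase (Fasn) builds palmitate from malonyl-CoA with NADPH, part of which comes from malic enzyme (Me1). Thrsp encodes the Spot 14 protein, a nuclear and cytosolic factor that promotes lipogenesis, Echdc1 an enzyme that removes ethylmalonyl-CoA made by the carboxylases as a side product, and Mcat the malonyl transferase of a separate mitochondrial pathway. In liver most of these genes are known to be induced by feeding and insulin and to be low in fasting, and the mice were killed after a 6-h fast.

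Fasn, Acly and Acaca lie on chromosome 11 and the other 7 members on 7 other chromosomes. Of the members, 9 had a promoter entry in the RefSeq table (build GRCm38.p6), and Mcat had none. The bases before the annotated start are shown for genes that moved together between mice (Fasn, Thrsp, Acly and Acss2). Those of Acacb, which did not move with them, are shown as well. Acacb has a probe, above background on 14 arrays, whose alignment spans 18743 bases of mm9. Its window may therefore lie before an inner exon and is not a like counterpart to the others. Each window is 250 bases long, ends at the base before the start and is written on the strand of the gene. Capitals give every match on either strand to CCAAT (the NF-Y box), CACGTG (an E-box), GGGCGG (a GC box) or CACCCCA (part of a sterol regulatory element).
Fasn, chr11:120824548-120824797, minus strand: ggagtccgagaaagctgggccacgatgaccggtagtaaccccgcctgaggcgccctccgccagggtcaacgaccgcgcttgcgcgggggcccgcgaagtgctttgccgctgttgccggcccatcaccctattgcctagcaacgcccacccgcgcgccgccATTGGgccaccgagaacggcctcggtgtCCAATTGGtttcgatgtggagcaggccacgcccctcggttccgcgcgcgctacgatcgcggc
Thrsp, chr7:97417551-97417800, minus strand: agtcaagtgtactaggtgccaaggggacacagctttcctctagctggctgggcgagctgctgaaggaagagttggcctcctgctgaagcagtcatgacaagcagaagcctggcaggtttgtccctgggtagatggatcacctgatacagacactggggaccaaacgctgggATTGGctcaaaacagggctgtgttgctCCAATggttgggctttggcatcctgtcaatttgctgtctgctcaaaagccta
Acly, chr11:100528001-100528250, minus strand: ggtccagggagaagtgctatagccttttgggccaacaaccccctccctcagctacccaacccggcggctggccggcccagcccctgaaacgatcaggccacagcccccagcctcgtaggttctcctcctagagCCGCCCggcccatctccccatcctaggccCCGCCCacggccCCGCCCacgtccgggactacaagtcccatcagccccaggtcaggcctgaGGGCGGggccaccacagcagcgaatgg
Acss2, chr2:155517793-155518042, plus strand: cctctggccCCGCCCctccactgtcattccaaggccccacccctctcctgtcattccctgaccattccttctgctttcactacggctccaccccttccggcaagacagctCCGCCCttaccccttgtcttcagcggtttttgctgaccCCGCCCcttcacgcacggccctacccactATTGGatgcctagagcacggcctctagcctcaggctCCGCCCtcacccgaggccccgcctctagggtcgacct
Acacb, chr5:114165268-114165517, plus strand: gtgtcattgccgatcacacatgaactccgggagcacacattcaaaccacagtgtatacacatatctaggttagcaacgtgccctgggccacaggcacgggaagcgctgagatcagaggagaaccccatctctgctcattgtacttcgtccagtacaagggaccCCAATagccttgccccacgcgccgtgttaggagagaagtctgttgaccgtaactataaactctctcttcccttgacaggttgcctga

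The 9 members had 11 windows, since Me1 and Echdc1 have 2 each. CCAAT stood in 8 of the 11 windows, of 7 members, and in 33.8% of all 32851 windows of the same length. Fasn held it 3 times, at 90, 62 and 59 bases before the start, the last pair overlapping on opposite strands, and Thrsp 2 times, at 79 and 52. GGGCGG was found in 4 of the 11 windows and in 32.7% of all, with 4 matches each in Acly, Acss2 and Slc25a1. CACGTG occurred in 1 of the 11 windows, that of Slc25a1, and in 6.0% of all, and CACCCCA in 1, of Echdc1, and in 6.7% of all. The window of Acaca held no match. A probe of this gene, above background on 15 arrays, has an alignment that spans 21895 bases of mm9. The Acaca window may therefore lie before an inner exon, so that it says little of the promoter. A match is only a run of letters, and no motif searched stood in the windows of all of Fasn, Thrsp, Acly and Acss2.

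The probes read different stretches of each transcript, which matters for the values that follow. The first 30 of the 60 bases are shown for the brightest probe of Fasn, for both probes of Thrsp, which gave the same picture, and for a pair of Acacb probes, which did not. Positions are those of the array design, on mm9.
Fasn, base 8690 of NM_007988, chr11:120668460-120668519: gcttgggttttgacttttctgcagctgtca
Thrsp, base 796 of NM_009381, chr7:104561649-104561708: aaagcagggatgctgtatctacctcacacg
Thrsp, base 399 of NM_009381, chr7:104565562-104565621: gacccggaaagcacaggaggtgacgcggaa
Acacb, base 8419 of NM_133904, chr5:114700702-114700761: cctgaccacttgggtgcgctgaagaggctg
Acacb, base 3778 of NM_133904, chr5:114667674-114667733: aaacgaccatattcgacgtcctgcccactt

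The first question was what the HFD-microbiota did to these genes compared with the vehicle. Of the 10 members, 9 were lower in HFD-microbiota mice than in controls, and 6 of them, Thrsp, Fasn, Acacb, Acaca, Acss2 and Echdc1, were lower at an unadjusted limma p under 0.05. Over all genes tested, 1.76% were lower and 1.49% higher at that threshold, 3.25% in all. The median difference was -0.54 on the log2 scale for the members and -0.00213 for all genes. No gene passed after Benjamini-Hochberg adjustment over the 20348 genes, where the adjusted limma p of every member was 1. On these same mice the study had picked out a network of metabolic genes, lower with the HFD-microbiota and tied to de novo lipogenesis. The direction of the members is therefore not independent evidence. In whole liver, fewer cells of a type and less RNA per cell cannot be told apart.

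Values are the log2 brightness of the brightest probe of a gene minus the 75th percentile of its array, and they compare mice, not genes. Thrsp lay between 6.16 and 7.85 in control mice, with a median of 6.97. In HFD-microbiota mice it was 6.51, 6.71, 5.84, 5.53 and 6.04. All 5 values were below the control median, and 3 of them were below the lowest control. The difference was -0.89 ± 0.32 (SE; -46.2%), with a limma p of 0.0144 and an exact two-sided permutation p of 0.0281.

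Fasn, the enzyme that builds the fatty acid chain, ranged from 5.79 to 7.83 in control mice with a median of 6.78. The HFD-microbiota mice had 6.60, 6.31, 5.71, 5.48 and 5.97. The ranges overlapped: mouse 25, at 6.60, was above 3 of the 6 controls, and control mouse 6, at 5.79, was below 3 of the 5 recipients. The difference of -0.76 ± 0.34 (SE; -40.8%) had a limma p of 0.0393 and an exact permutation p of 0.0628.

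Acacb, the carboxylase that controls fatty acid oxidation, was the only member whose brightest probe did not overlap between these groups. Controls lay between 4.76 and 5.35 with a median of 4.96, and the HFD-microbiota mice had 4.23, 4.69, 3.78, 4.72 and 4.70. Every recipient was below every control, as in 0.113% of all genes, although 3 recipients missed the lowest control by less than 0.1. The difference was -0.58 ± 0.22 (SE; -33.0%), with a limma p of 0.02 and an exact permutation p of 0.00216, the smallest that 5 against 6 mice can give. Without mouse 28, the lowest recipient, the difference was -0.42 and no longer passed the limma threshold, nor did the -0.29 that the mean of its probes gave.

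Acss2, the acetate-activating enzyme, was 4.16 to 5.09 in controls (median 4.80) and 4.47, 4.44, 4.01, 3.83 and 4.20 in HFD-microbiota mice. It had the smallest limma p of the members, 0.0073, for a difference of -0.53 ± 0.17 (SE; -30.6%), and its exact permutation p was 0.0173. Acaca was 4.24 to 5.47 in controls (median 5.11) and 4.82, 4.67, 4.40, 4.24 and 4.26 in recipients. Its difference of -0.54 ± 0.24 (SE) had a limma p of 0.0365 and an exact permutation p of 0.0584, and control mouse 6 was as low as the lowest recipient. Acly, for which control values ran from 5.22 to 6.56 (median 5.95), had 5.58, 5.60, 5.0, 5.19 and 4.91 in recipients. The difference of -0.60 ± 0.29 (SE) had a limma p of 0.0532 and an exact permutation p of 0.0411.

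In Echdc1, the enzyme that removes ethylmalonyl-CoA, the controls were widely spread. The recipients lay close together, at 1.29, 1.47, 1.32, 1.26 and 1.42, and the controls ran from 1.37 to 2.15 with a median of 1.75. The 3 controls of slide 1 stood between 2.01 and 2.15 and the 3 of slide 2 between 1.37 and 1.49. The difference was -0.39 ± 0.14 (SE; limma p = 0.0168, exact permutation p = 0.0736). It was -0.73 on slide 1 and -0.04 on slide 2.

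Me1, a source of NADPH, was 5.32 to 5.68 in controls and 4.60, 5.55, 5.07, 5.32 and 5.23 in HFD-microbiota mice, a difference of -0.32 ± 0.15 (SE) with a limma p of 0.0523 and an exact permutation p of 0.0563. Slc25a1 and Mcat gave differences of -0.03 ± 0.08 and 0.02 ± 0.10 (SE), with exact permutation p of 0.671 and 0.833. Their within-group SDs, 0.11 and 0.15, were the smallest of the members.

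The 8 members other than Slc25a1 and Mcat were on both slides below the control mean in the HFD-microbiota mice, although Echdc1 (-0.04) and Me1 (-0.07) hardly so on slide 2, and with slide as a block 7 were lower at a limma p under 0.05, where 3.39% of all genes passed. The count rested on few mice. Leaving out 1 mouse at a time gave 3 to 8 members, with 3 when mouse 28 was left out. Thrsp, Acss2 and Echdc1 stayed under 0.05 in all 16 of these fits, while Fasn did not in 6 of them (without mice 2, 4, 5, 28, 29 or 30) and Acaca not in 7 (without mice 1, 2, 4, 5, 28, 29 or 30).

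**Figure D1:**
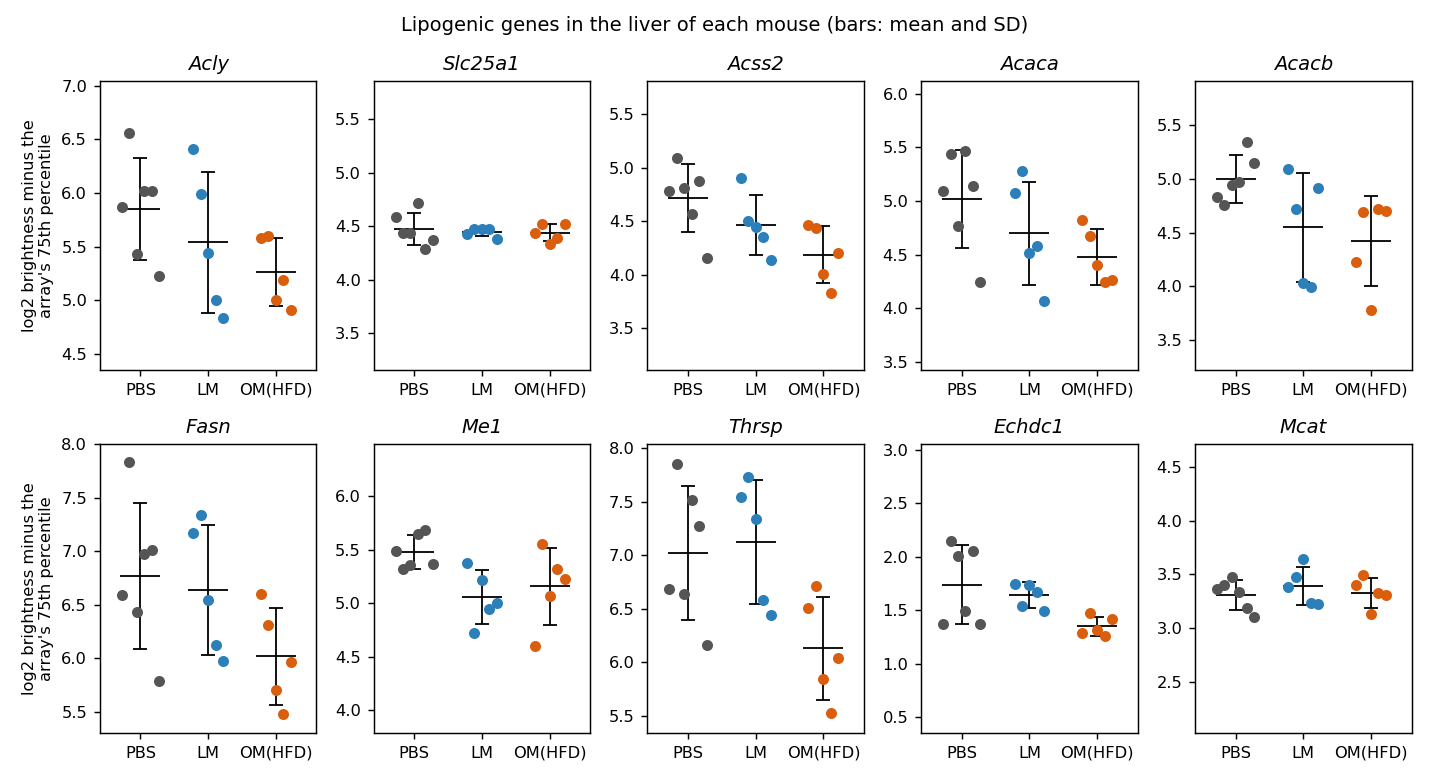
Log2 brightness minus the 75th percentile of the array (y axis, a span of 2.7 in each panel) for each of the 10 genes in every mouse, by group (x axis), with black bars for the mean and SD. Thrsp, Fasn, Acly, Acaca and Acss2 spread widely within each group and are centred lower in OM(HFD), Acacb of OM(HFD) mice lies below all PBS mice, and Slc25a1 and Mcat are nearly level.

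Fewer members passed with the lean microbiota. In these mice 8 of 10 members were below the controls, with a median difference of -0.19 against -0.0107 for all genes, and only Me1 had a limma p under 0.05. Over all genes, 2.09% were lower and 1.8% higher at that threshold, 3.89% in all, so a single member says nothing of the members as a group. The adjusted limma p of every member was 0.998. The same 6 controls serve here and in the comparison before, so these are not independent.

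Me1 was 5.38, 4.72, 5.22, 4.95 and 5.0 in lean-microbiota mice against 5.32 to 5.68 in controls. All 5 recipients were below the control median of 5.43, and mouse 13 alone reached into the control range. The difference was -0.42 ± 0.15 (SE; -25.4%), with a limma p of 0.0146 and an exact permutation p of 0.00866, and it was -0.40 on slide 1 and -0.45 on slide 2. Side by side, the differences from controls in lean- and HFD-microbiota mice were -0.42 and -0.32 for Me1, and -0.45 and -0.58 for Acacb.

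Thrsp and Fasn, with the largest differences from controls in HFD-microbiota mice, were nearer to controls by their means here. Thrsp was 7.54, 7.73, 7.34, 6.58 and 6.44 in lean-microbiota mice, a difference of 0.11 ± 0.32 (SE; exact permutation p = 0.779) from controls, which was -0.05 with array weights, and Fasn was 7.17, 7.34, 6.55, 6.13 and 5.98, a difference of -0.14 ± 0.34 (SE; exact permutation p = 0.738), which was -0.33 with array weights. The next in size, Acly and Acacb, were at -0.32 ± 0.29 and -0.45 ± 0.22 (SE). The lean-microbiota mice of slide 1 (mice 13 and 14) were the highest of their group for Fasn, Thrsp, Acly and Acaca, so that for Acly the difference from controls was 0.20 on slide 1 and -0.61 on slide 2. The count of members at a limma p under 0.05 was 3 without control mouse 6 and 2 without mouse 13, 17 or 28.

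Compared directly, the inocula differed most in Thrsp. The HFD-microbiota mice were lower, with a difference of -1.0 ± 0.34 on the log2 scale (SE; -49.9%), with a limma p of 0.0097, an adjusted p of 0.999 and an exact permutation p of 0.0397. All 5 HFD-microbiota mice were below the lean-microbiota median of 7.34, and the difference was -1.50 on slide 1 and -0.67 on slide 2. Thrsp was the only member past the limma threshold, while 1.29% of all genes were lower and 1.38% higher at that threshold, 2.66% in all. In all, 9 members were lower, with a median difference of -0.25 against 0.00341 for all genes.

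Echdc1 was 1.75, 1.54, 1.74, 1.67 and 1.49 in lean-microbiota mice and at most 1.47 in HFD-microbiota mice, so that these groups did not overlap, as in 0.251% of all genes in that direction. Its exact permutation p was 0.00794, the smallest that 5 against 5 mice can give, and the limma p was 0.076 in the fit that also holds the controls. The difference of -0.29 ± 0.15 (SE) was alike on both slides, -0.30 and -0.27. For Fasn the difference was -0.62 ± 0.35 (SE; exact permutation p = 0.111), for Acss2 -0.28 ± 0.18 (SE; exact p = 0.159) and for Acacb -0.13 ± 0.23 (SE; exact p = 0.627). With slide as a block, 4 members (Thrsp, Fasn, Acss2 and Echdc1) had a limma p under 0.05, where 4.23% of all genes passed, and Acly, Acaca and Acacb were lower on slide 1 (-1.04, -0.68 and -0.67) and higher on slide 2 (0.30, 0.07 and 0.39). Without mouse 17 the count was 2.

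**Figure D2:**
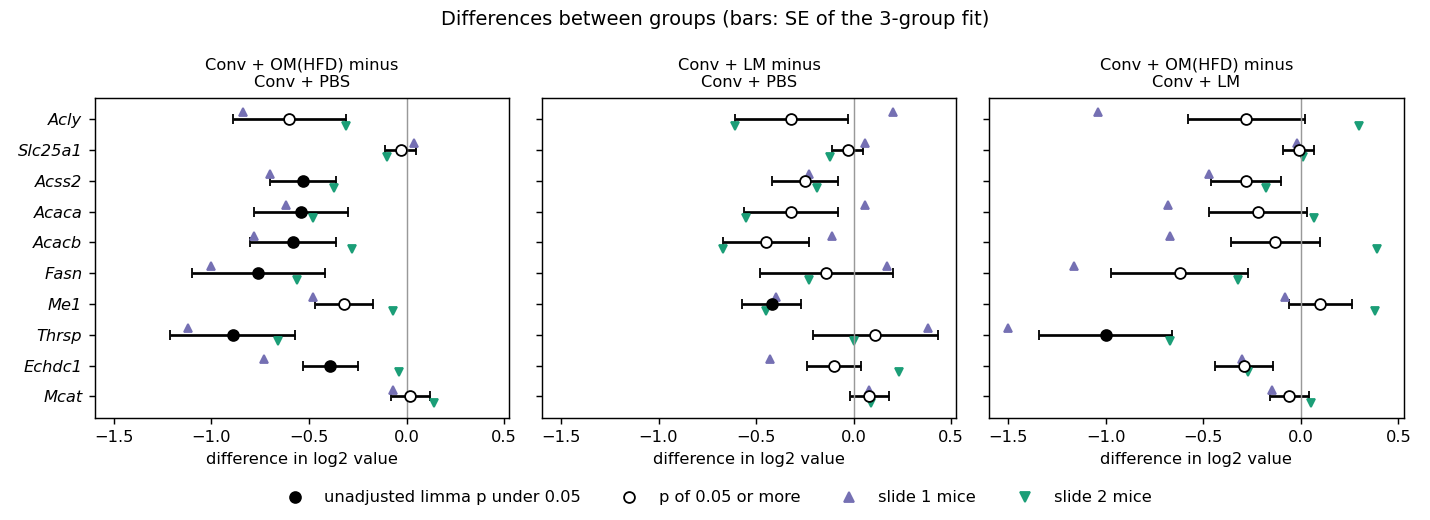
Difference in log2 value (x axis) for each gene (y axis) in the 3 comparisons, with bars for the SE of the 3-group fit, filled circles for an unadjusted limma p under 0.05, and triangles for the difference among the mice of slide 1 (up) or slide 2 (down). The filled circles number 6 in the first panel and 1 each in the others, Me1 and Thrsp, and the triangles of OM(HFD) against LM lie on opposite sides of 0 for Acly, Acaca and Acacb, and close to 0 or on both sides for Slc25a1, Me1 and Mcat.

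By group means, Acly, Acaca, Acacb, Fasn, Acss2 and Echdc1 were in the order Conv + PBS, Conv + LM, Conv + OM(HFD) from high to low. Thrsp was highest in Conv + LM (7.12 ± 0.58, SD, n = 5), next in Conv + PBS (7.02 ± 0.63, SD, n = 6) and lowest in Conv + OM(HFD) (6.13 ± 0.48, SD, n = 5). Me1 was highest in Conv + PBS (5.48 ± 0.16, SD, n = 6), and Conv + OM(HFD) (5.16 ± 0.36, SD, n = 5) and Conv + LM (5.06 ± 0.25, SD, n = 5) followed. For these 8 genes, the only neighbours in the order that differed at a limma p under 0.05 were the controls and the HFD-microbiota mice for Thrsp. For Me1 only the ends of the order did.

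The members differed in how much they varied between mice of the same group. Within-group SDs were 0.60 for Fasn, 0.57 for Thrsp, 0.50 for Acly and 0.42 for Acaca, against a median of 0.24 for all genes, and Fasn was at the 89.6th percentile of all genes. Replicate spots of a probe had an SD of 0.07 to 0.20 over the 16 arrays (median 0.08), which holds no labelling or hybridisation error. Slc25a1, the citrate carrier, was at the 4.78th percentile. Of the whole variance of Thrsp, 41.8% lay between groups, of Acss2 40.5%, of Me1 38.2% and of Fasn 27.0%, against a median of 8.83% for all genes, so that most of the variance of each member lay between mice treated alike.

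The second question was whether these genes moved together from mouse to mouse. To keep the treatment out of it, the mean of its group was taken from each value. A limma fit of every gene on group and the Fasn value of the mouse found 3 members that followed Fasn at an adjusted p under 0.05 over all genes: Thrsp (slope 0.92 ± 0.08, SE; adjusted p = 0.000517), Acly (0.76 ± 0.10; adjusted p = 0.00913) and Acaca (0.63 ± 0.09; adjusted p = 0.0107). Of 20347 genes, 28 (0.138%) followed Fasn upwards at this threshold and 12 (0.059%) ran against it. This background was unstable, at 5 (without mouse 6) to 100 (without mouse 1) genes upwards when 1 mouse was left out and 592 with array weights. A slope of 0.92 means that a mouse with Fasn 1 log2 unit above its group had Thrsp 0.92 units above.

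Acss2 had a slope of 0.41 ± 0.08 (SE), with a limma adjusted p of 0.0518. Ranked by Pearson r with Fasn over the 16 mice, Thrsp (0.955) was number 2 of all genes, Acaca (0.905) number 6, Acly (0.904) number 7 and Acss2 (0.843) number 34. Echdc1 and Mcat were intermediate, with r of 0.485 and 0.514 and adjusted limma p of 0.352 and 0.368. Slc25a1 (0.198), Acacb (0.0685) and Me1 (-0.099) showed no slope that the fit could tell from 0. The median r with Fasn over all genes was -0.0705.

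With slide as a block, Thrsp was the only gene of all that followed Fasn at an adjusted limma p under 0.05, and Acly and Acaca had 0.0516 and 0.0593 with slopes of 0.84 and 0.69. Without mouse 6 the adjusted limma p of Acaca was 0.079. Within the slides, r with Fasn was 0.99 and 0.96 for Thrsp, 0.90 and 0.89 for Acly, 0.91 and 0.91 for Acaca, and 0.71 and 0.85 for Acss2.

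**Figure D3:**
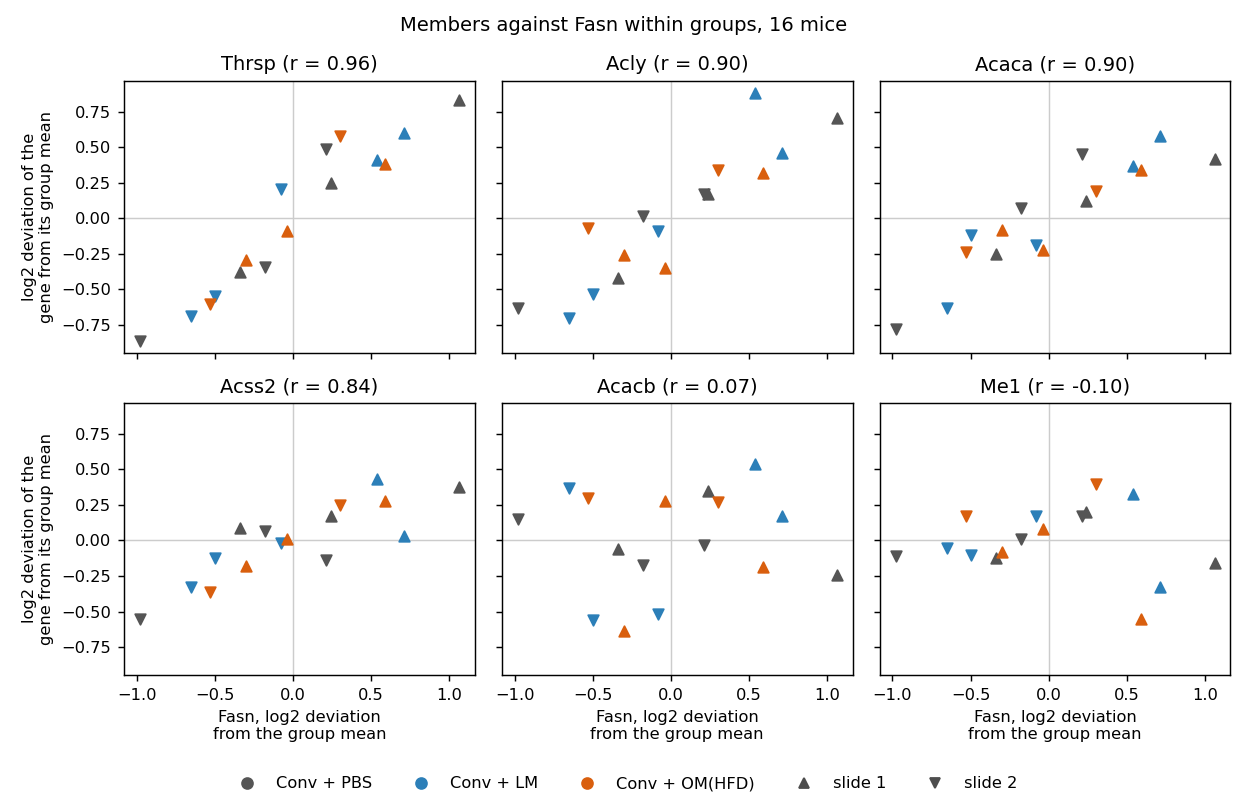
Log2 deviation of 6 genes from their group means (y axis) against that of Fasn (x axis) in 16 mice, coloured by group, with triangles up for slide 1 and down for slide 2, and Pearson r above each panel. Thrsp, Acly, Acaca and Acss2 rise with Fasn on both slides, while Acacb and Me1 scatter.

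All 45 pairs of members were then correlated in the same way, with 100000 permutations of the mice within groups. The median r was 0.31, and 38 pairs were positive. A total of 11 pairs had a permutation p under 0.05 after Benjamini-Hochberg adjustment over the 45 pairs, and 10 by Spearman rho. Of these 11, 10 were all the pairs among Fasn, Thrsp, Acly, Acaca and Acss2, for which r ran from 0.73 to 0.96. The remaining pair was Acss2 with Echdc1.

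Fasn and Thrsp, the synthase and the Spot 14 factor, had the highest r, 0.96 (permutation p = 1e-05, the smallest that these permutations can give; adjusted p = 0.00045; rho 0.96, adjusted p = 0.00045), and 0.94 without the 2 mice farthest from the median. For Fasn and Acly, r was 0.90 (permutation p = 7e-05; adjusted p = 0.00105; rho 0.90, adjusted p = 0.00126) and 0.91 without 2 mice, and for Acly and Acaca 0.88 (permutation p = 0.00023; adjusted p = 0.00172; rho 0.89, adjusted p = 0.0015) and 0.90 without 2 mice. The lowest of the 10 was Acaca with Acss2, 0.73 (permutation p = 0.0033; adjusted p = 0.0148), whose rho of 0.61 had an adjusted permutation p of 0.0814. These 10 values stayed between 0.55 and 0.99 on slide 1 and between 0.72 and 0.96 on slide 2. Acss2 with Echdc1 gave 0.63 (permutation p = 0.00459; adjusted p = 0.0188; rho 0.66, adjusted p = 0.0245) and 0.55 without 2 mice.

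The carboxylases parted. Acaca had r of 0.90 with Fasn and Acacb 0.07 (permutation p = 0.8), and Acaca and Acacb had r of -0.02 with each other (permutation p = 0.938). None of the 9 pairs of Acacb and none of the 9 pairs of Me1 had a permutation p under 0.05 even before adjustment. The highest r of either was that between them, 0.38 (permutation p = 0.224; rho 0.48, p = 0.0868). For Me1 the slides disagreed: with Fasn, Thrsp, Acly, Acaca and Acss2 its r was -0.30 to 0.12 on slide 1 and 0.64 to 0.89 on slide 2, with 8 mice on each, so that no value for the 16 mice describes both. For Acacb with the same 5 genes r was 0.17 to 0.43 on slide 1 and -0.31 to 0.02 on slide 2. Over all 45 pairs the median r was 0.19 on slide 1 and 0.64 on slide 2.

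**Figure D4:**
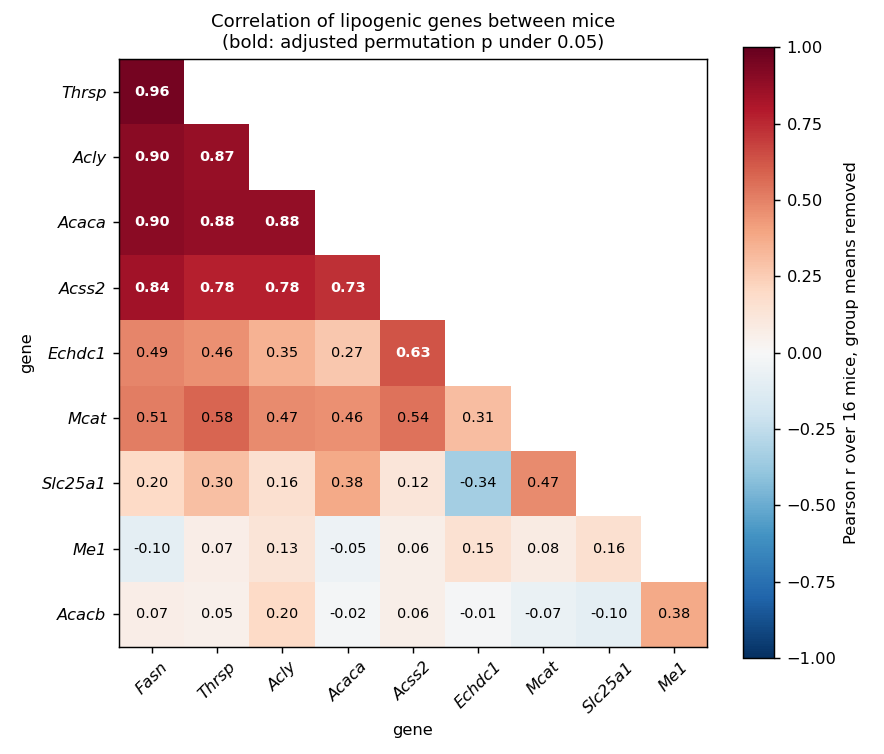
Pearson r of the within-group deviations over 16 mice for each pair of the 10 genes (both axes; colour from blue, -1, to red, 1), with bold values for an adjusted permutation p under 0.05. The block of Fasn, Thrsp, Acly, Acaca and Acss2 holds 10 bold values between 0.73 and 0.96, and the rows of Me1 and Acacb hold none.

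In single mice this meant that the genes stood on the same side together. In 11 of 16 mice, Fasn, Thrsp, Acly, Acaca and Acss2 were either all above (6 mice) or all below (5 mice) their group means. These genes were grouped for their r in the same mice, so the count restates those r and adds no separate support. Averaged over the 10 members, mouse 13 of Conv + LM (0.36 above its group), mouse 2 of Conv + PBS (0.34) and mouse 26 of Conv + OM(HFD) (0.27) were highest, and mouse 6 of Conv + PBS (-0.45) and mice 17 (-0.31) and 16 (-0.26) of Conv + LM were lowest. Mouse 26 was above its group mean for all 10 members and mouse 28 for none. The first principal component held 73.9% of the covariance of the 10 genes, which weights those that vary most, and 51.1% of their correlation.

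Because Fasn itself differed between groups, the group differences were also computed at equal Fasn, with the Fasn value of the mouse as a covariate, a choice made after the data were seen. This value is the group difference less the slope on Fasn times the Fasn difference, so it restates the slopes on the scale of the group differences and is no separate test. Between HFD-microbiota mice and controls it was -0.02 ± 0.15 (SE) for Acly, -0.07 ± 0.13 for Acaca, -0.20 ± 0.13 for Thrsp, -0.21 ± 0.12 for Acss2, -0.24 ± 0.15 for Echdc1, -0.36 ± 0.18 for Me1 and -0.54 ± 0.27 for Acacb. In that comparison no member had a limma p under 0.05, which 5.54% of all genes had. Between lean-microbiota mice and controls 1 member did, Me1 at -0.43 ± 0.16 (SE), as did 6.16% of all genes. Between HFD- and lean-microbiota mice, the difference of Thrsp at equal Fasn was -0.43 ± 0.13 (SE), past an unadjusted limma p of 0.05 as were 1.63% of all genes, with an adjusted p of 1.

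The reliability of these values depends on the probes. Of the 26 probes, 21 were well above background on all 16 arrays and 25 passed the filter. Of those 21, 18 read lower in the HFD-microbiota mice than in controls, as did 50.7% of all genes tested. Fasn and Echdc1 had a single probe each, so their values could not be checked in this way. For the other genes, the within-group deviations of each further probe were correlated with those of the brightest one, and over all genes with several such probes the median of this r was 0.36 (quartiles 0.08 and 0.62; 7815 probes of 5477 genes).

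Thrsp had the closest agreement. Its probes, at bases 796 and 399 of the transcript, had r of 0.98 and gave -0.89 and -0.97 for HFD-microbiota mice against controls. The Acly probes agreed at r of 0.86, with -0.60 and -0.50, and those of Me1 at 0.80, with -0.32 and -0.36. Slc25a1 (0.51) and Mcat (0.45) agreed less, in genes that varied little.

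Acaca had 7 probes. Those at bases 8237, 6880 and 81 of the same RefSeq transcript had r of 0.85, 0.87 and 0.63 with the brightest and differences of -0.69, -0.60 and -0.26, and the probe at 6880 was above background on 7 arrays only. A probe whose alignment spans 21895 bases of mm9 from its first base to its last had r of 0.70 and a difference of -0.59. A probe at base 141 of a further transcript, above background on 5 arrays, had r of 0.36 and -1.44, and the remaining probe was well above background on no array. Acss2 had a second probe in the same transcript (base 1977; r 0.80; -0.41) and a pair in the transcript ENSMUST00000149788 that did not follow it, with r of 0.01 and 0.14 and differences of -0.38 and 0.32.

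The Acacb probes parted too. The probe at base 8419 gave -0.58, that at base 278 of another transcript gave -0.25 (r 0.62; above background on 14 arrays), and that at base 3778, well above background on all 16 arrays, gave -0.05 with r of 0.13. With a gene taken as the mean of its probes, the difference of Acacb was -0.29 and that of Acss2 -0.25, and neither had a limma p under 0.05.

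**Figure D5:**
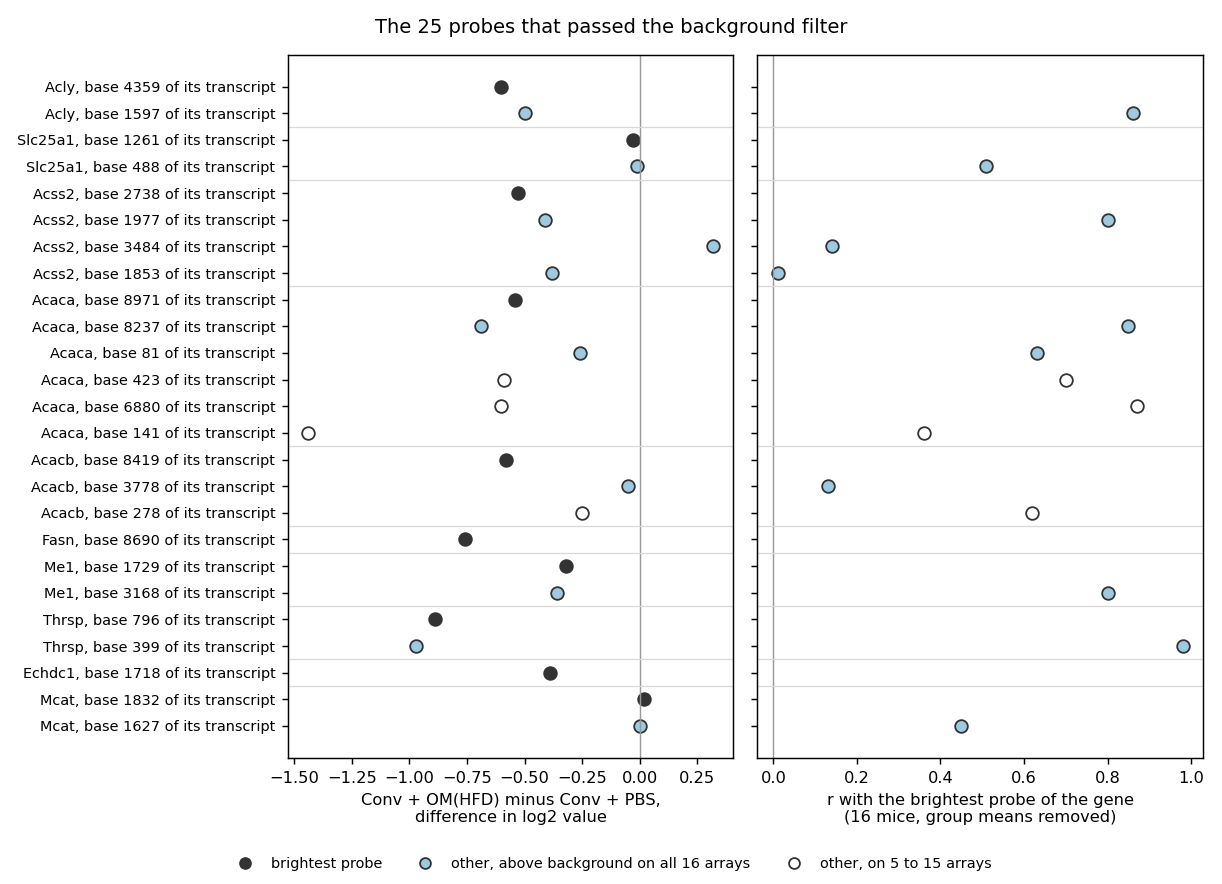
For the 25 probes that passed the background filter (rows, grouped by gene and named by the base of the transcript where they start), the difference in log2 value between OM(HFD) and PBS mice (left) and Pearson r with the brightest probe of the gene over 16 mice (right). The Thrsp, Acly and Me1 probes lie close together, while 1 Acacb probe lies at -0.05 and 1 Acss2 probe at 0.32, with r of 0.13 and 0.14.

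The genes around the pathway were read from lists. At a limma p under 0.05, 1.76% of all genes were lower in HFD-microbiota mice than in controls. The share lower was 2.09% in lean-microbiota mice against controls and 1.29% in HFD- against lean-microbiota mice. Of 16 regulators of lipogenesis, 1 followed Fasn: Mid1ip1 (slope 1.12; r 0.86; adjusted p = 0.0313), which encodes a partner and relative of Spot 14. Srebf1, the transcription factor that drives lipogenic genes in response to insulin, had r of 0.80 and an adjusted limma p of 0.0663. Mlxipl, which encodes the sugar-sensing factor ChREBP, had r of 0.21 and Nr1h3, the oxysterol receptor LXRalpha, 0.20. Between HFD-microbiota mice and controls, 1 regulator was lower at a limma p under 0.05, Insig1 (-0.32 ± 0.11, SE), which retains SREBP in the endoplasmic reticulum. Insig1 was also lower than controls in lean-microbiota mice, at -0.30 ± 0.11 (SE), and its difference between the inocula was -0.02 ± 0.11. The differences were -0.24 ± 0.40 (SE) for Srebf1, -0.19 ± 0.11 for Mlxipl and -0.01 ± 0.08 for Nr1h3, and the adjusted limma p of every list gene in that comparison was 1.

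Downstream of Fasn, 1 of 11 genes of desaturation and elongation followed it: Elovl6, the elongase that makes stearate from palmitate (slope 0.76; r 0.89; adjusted p = 0.0138). Elovl6 was also the only gene of that list that was lower in HFD-microbiota mice than in controls at a limma p under 0.05 (-0.64 ± 0.29, SE). Scd1, the main hepatic desaturase, had a difference of -0.11 ± 0.12 (SE) and r of 0.53 with Fasn. Of 15 genes of glycerolipid assembly none followed Fasn, and Gpam, the first acyltransferase, had a difference of -0.18 ± 0.09 (SE) between the same groups. The only gene of that list at a limma p under 0.05 was Gpat2, another acyltransferase, with -0.24 ± 0.11 (SE) against controls and -0.38 ± 0.11 against lean-microbiota mice. Of the lists of 8 genes of malonyl-CoA turnover and 7 of mitochondrial fatty acid synthesis, none followed Fasn and none differed at a limma p under 0.05 in any of the 3 comparisons.

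Upstream of the pathway, none of 14 genes of carbon supply from sugar and none of 8 of NADPH supply followed Fasn. Pklr, liver pyruvate kinase, had r of 0.72 (adjusted p = 0.0991) and Pgd, an NADPH-producing enzyme of the pentose phosphate pathway, 0.62 (adjusted p = 0.194). In HFD-microbiota mice against controls, 2 of the 14 (Khk and Slc2a2) were lower at an unadjusted limma p under 0.05. So was 1 of the 8 (Pgd, -0.39 ± 0.15, SE). In lean-microbiota mice against controls, 1 of the 14 (Khk, -0.26 ± 0.12, SE) and 1 of the 8 (G6pdx, -0.44 ± 0.18, SE) were lower at that threshold. The difference of Pgd between HFD- and lean-microbiota mice was -0.37 ± 0.15 (SE). Of 21 genes of cholesterol synthesis and uptake, 20 had a lower mean in HFD-microbiota mice than in controls, as did 50.7% of all genes. Their median difference was -0.18 against -0.00213 for all genes.

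The genes outside the members with the highest r with Fasn were Sdr39u1 (0.96), Zfp276 (0.925), Slc2a4 (0.924), Gtf3c5 (0.918) and Firre (0.90), all over 16 mice. Slc2a4 encodes the insulin-regulated glucose transporter GLUT4 and had the steepest slope of these, 1.33 (adjusted p = 0.0035). None of the 5 had a limma p under 0.05 in any comparison between groups.

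No gene of the fasting list or of the clock list passed the test on Fasn. Of 16 fasting and PPARalpha targets, 14 had a negative r with Fasn (median -0.52), among them Pdk4, the kinase that closes pyruvate dehydrogenase in fasting (-0.735; adjusted p = 0.0834). Of 14 clock genes tested, 8 had a positive and 6 a negative r (median 0.12), with -0.64 for Arntl and 0.58 for Dbp. Neither list had a gene at a limma p under 0.05 between HFD-microbiota mice and controls. Between HFD- and lean-microbiota mice, 2 of the 14 clock genes were lower at that threshold, Per2 (-0.35 ± 0.14, SE) and Cry2 (-0.19 ± 0.08, SE), with an adjusted p of 0.999 each. The time of sampling of each mouse is not in the labels, and the part of fasting and time of day in these results was not tested.

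The tissue label was checked against markers. All 10 hepatocyte markers were well above background on all 16 arrays, and none differed between groups at a limma p under 0.05. All 10 had a higher mean in HFD-microbiota mice than in controls, with a median difference of 0.09, where 50.7% of all genes had a lower one. All 10 had a negative r with Fasn within groups, with a median of -0.29, where 43.5% of all genes had a positive one. Their summed linear level, in units of the 75th percentile of the array, was 6930 to 8670 in Conv + PBS, 6960 to 8410 in Conv + LM and 7580 to 8810 in HFD-microbiota mice. Of 9 adipocyte markers 7 were tested, with summed levels of 237 to 406, 299 to 438 and 221 to 372 in the same order of groups. None passed. Such a sum is carried by the brightest genes. Singly, 5 of the 7 had a lower mean in HFD- than in lean-microbiota mice and 2 a higher one, against 49% of all genes lower. The largest of these differences were those of Cfd (-1.90 ± 1.02, SE) and Plin1 (-1.55 ± 0.77, SE). Adipoq, which defines fat cells, was well above background on 1 array and Plin1 on 7. Summed levels of 9 of 10 immune cell markers were 26.5 to 102, 25.3 to 35.2 and 25.9 to 69.8, those of 4 of 8 pancreas markers 33.3 to 44.2, 27.2 to 53.3 and 25.5 to 39.9, and those of 2 of 6 muscle markers at most 0.379. Cd79a of B cells, Cpa1, Cpb1 and Prss1 of the pancreas, and Ckm and Myh1 of muscle were well above background on no array. The part of these cells in the results was not tested.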

How the data were processed

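Liver RNA of 16 mice was hybridised to 16 one-colour Agilent mouse arrays. Per the labels and file headers, the authors scanned them and extracted spot intensities with Feature Extraction 10.10.1.1, and the deposited files hold background-subtracted intensities with flags per spot. A table of log2 values deposited by the authors matched quantile-normalized median brightness and served as an alternative. Here, the processed intensity was taken to log2 and the 75th percentile of its array subtracted; brightness limits the precision, and the number of arrays the tests. Control spots and flagged spots were left out, the other spots of a probe were averaged, and probes left without a value on any array were dropped. No member probe had a flagged spot, and the authors' values were taken without this masking. Probes had to be well above background on at least 5 of 16 arrays, and the brightest probe stood for a gene. The probes were matched by gene name. The 10 members, the gene lists and the tests were chosen with earlier results of these data known.

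Groups followed the labels. The 3-group model and the slope on Fasn within groups were fitted to all genes with limma 3.58.1 in R 4.3.3, with Benjamini-Hochberg adjustment. Single genes were also tested by exact two-sided permutation of mice, and member pairs by 100000 permutations within groups, two-sided. The scripts were tested on simulated data. The genes named outside the members were those of the lists with an adjusted p under 0.05 on Fasn, a few named whatever their values (Srebf1, Mlxipl, Nr1h3, Scd1, Elovl6, Pklr, Pgd, Gpam, Arntl, Dbp and Pdk4) and the 5 with the highest r with Fasn. Some results of the lists are not reported here. Insig1, Khk, Slc2a2, G6pdx, Gpat2, Per2, Cry2, Cfd and Plin1 lie outside this rule and were chosen with their values in view. So was the group of Fasn, Thrsp, Acly, Acaca and Acss2. The alternatives tried were quantile normalization, normexp correction (offset 50), the authors' log2 values, other filters, slide as a block, array weights, the mean of probes, only the compared mice, the methods' t-test, other reference genes and leaving out each mouse. Plots came from matplotlib 3.10.9 (Python 3.11.15). Promoter windows are from RefSeq on GRCm38.p6, and probe positions, on mm9, from the array design.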

Additional observations from a re-analysis of the deposited data

How the results depend on the processing

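The count of members lower in HFD-microbiota mice than in controls at a limma p under 0.05 was 5 to 8 under the other settings, against 6, and 3 to 8 leaving out 1 mouse. For lean-microbiota mice against controls it was 2 with normexp correction, with the authors' log2 values and with array weights, against 1, and 1 to 3 leaving out 1 mouse. Between HFD- and lean-microbiota mice it was 4 with slide as a block and 2 with array weights, with only the mice compared and with the methods' t-test, against 1, and 1 to 2 leaving out 1 mouse. The members that followed Fasn numbered 1 with slide as a block and 1 with Acly in place of Fasn, against 3. They numbered 2 with no filter on dim probes, and 4 with normexp correction, quantile normalization, the authors' values, only probes above background on all arrays, array weights or no group term. Acss2 passed under the first 5 of these, with slopes of 0.42 to 0.43 or, with the all-array filter, 0.41. The count was 2 to 4 leaving out 1 mouse. Of all genes, 28 followed Fasn upwards; the count was 72 with normexp correction, 67 with quantile normalization, 57 with the authors' values, 92 with only probes above background on all arrays, 592 with array weights, 4 with no filter, 1 with slide as a block, 1 with Acly as reference, and 5 (without mouse 6) to 100 (without mouse 1) leaving out 1 mouse. The median r of member pairs was 0.20 to 0.38 leaving out 1 mouse. With quantile normalization the difference of Acaca between HFD-microbiota mice and controls was -0.53 and no longer passed.

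Of 963 values of single genes under an alternative, 865 kept their direction and their side of the threshold, 26 no longer passed it, 40 newly passed it and 32 turned in sign; the cause was not tested. Against controls, Mcat in HFD-microbiota mice was -0.04 with normexp, -0.03 with the authors' values and -0.02 with array weights, Thrsp in lean-microbiota mice -0.05 with array weights, and Slc25a1 in them 0.03 with the mean of probes. Between HFD- and lean-microbiota mice, Slc25a1 was 0.02 with quantile normalization, 0.01 with slide as a block and 0.02 with Fasn as a covariate, a setting chosen after seeing the data, under which Acly was 0.19, Acaca 0.17 and Mcat 0.02. The slope on Fasn was 0.07 for Me1 with slide as a block, and for Acacb -0.01 with array weights and -0.08 with the mean of probes. Leaving out 1 mouse, values ran from -0.07 to 0.01 (Slc25a1) and -0.02 to 0.07 (Mcat) for HFD-microbiota mice against controls, from -0.33 to 0.07 (Fasn), -0.07 to 0.28 (Thrsp) and -0.07 to 0.02 (Slc25a1) for lean-microbiota mice against controls, and from -0.27 to 0.04 (Acacb), -0.03 to 0.02 (Slc25a1) and -0.10 to 0.01 (Mcat) between the inocula. Slopes on Fasn ran from -0.04 to 0.16 for Acacb and from -0.10 to 0.05 for Me1. No paired analysis was possible because no mouse number occurs in more than 1 group.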
